A study of Ovis aries with 49 samples.

Results

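Cardiac sarcomere genes were followed through 5 fat depots of the lamb. The set held 10 genes, found as the probe sets that the platform annotation names TNNI3, TNNC1, TPM1, ACTC1, MYH6, MYH7, MYL2, TTN, PDLIM5 or RBM24, and all 10 were among the 10273 probe sets of the table, each with 1 probe set. The sources used here do not say how the probe sets of the table were chosen from those of the array. Total RNA of adipose tissue of sheep (Ovis aries) from epicardial, subcutaneous, sternal, omental and perirenal sites was hybridised to human expression arrays, 1 array per sample. There were 25 arrays of lambs aged 28 days and 24 of lambs aged 7 days, with 5 in every group but the younger subcutaneous one, which had 4. One sex-matched twin of each mother went to each age. The labels say nothing of maternal diet, and their titles all carry an unexplained letter C. Replicates are named by letters in the order of the numbers in the titles, which begin with H in the older lambs and with A in the younger ones, and no number occurs at both ages.

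The sarcomere is the contractile unit of striated muscle, in which thick filaments of myosin slide along thin filaments of actin when calcium binds the troponin complex. The heart builds it from a set of protein forms of its own, of which cardiac troponin I and the alpha myosin heavy chain are largely restricted to heart muscle in human and mouse, while cardiac troponin C, the beta myosin heavy chain and the ventricular regulatory light chain are shared with slow skeletal muscle. Epicardial fat lies on the heart muscle with no fascia between them, and subcutaneous and sternal fat lie next to skeletal muscle.

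Values are log2 signals made by the authors with GCRMA, in which the lowest value was 2.49 and 82.7% of all values lay below 4. Mean log2 signal per array differed little among the 49 arrays, from 3.25 in sternal fat at 28 days to 3.44 in epicardial fat at 28 days. Probes were designed for human transcripts, so a value near the lowest may come from weak binding of sheep RNA or from low expression, and levels were compared only within a probe set. The probe set of MYH7 (216265_x_at) can bind related transcripts, of which MYH6 is a near-identical one, and those of TPM1 (206116_s_at), MYL2 (209742_s_at) and PDLIM5 (213684_s_at) are shared by several transcripts of a gene or family. Labels name the replicates only by number, so p-values measure the spread between these arrays. The main tests treat arrays of the same number as independent.

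All 10 genes were higher in epicardial fat than the mean of the remaining 4 depots at both ages. Log2 differences ran from 3.22 for TPM1 to 6.05 for TNNI3 at 28 days, and from 4.67 for TPM1 to 7.67 for TNNI3 at 7 days. In limma with Benjamini-Hochberg adjustment over all probe sets, called at an adjusted p of at most 0.05, 10 of 10 were called at 28 days, where 2.74% of all probe sets were called higher (3.24% in either direction), and 10 of 10 at 7 days, where 3.35% were called higher (4.07% in either direction). If the table was filtered for variation, genes near the lowest signal outside epicardial fat may be in it only through epicardial arrays. Such a filter would partly set these counts in advance. The median difference of the 10 genes was 4.70 at 28 days and 6.22 at 7 days, beside medians of -0.0021 and 0.0039 over all probe sets. At 28 days 5 of the 10 calls (TNNC1, MYL2, TTN, TPM1 and PDLIM5) were lost without epicardial replicate J (2.2% of all probe sets called) or without replicate O (2.23%), 3 without L and MYL2 without N, and the same 5 as without J were lost with the replicate number as a block in the fit (2.13%). A test over all 5 depots called 10 of 10 at 28 days (20% of all probe sets) and 10 of 10 at 7 days (8.16%). In whole-tissue RNA a smaller number of muscle cells and less RNA per cell cannot be told apart.

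**Figure D1:**
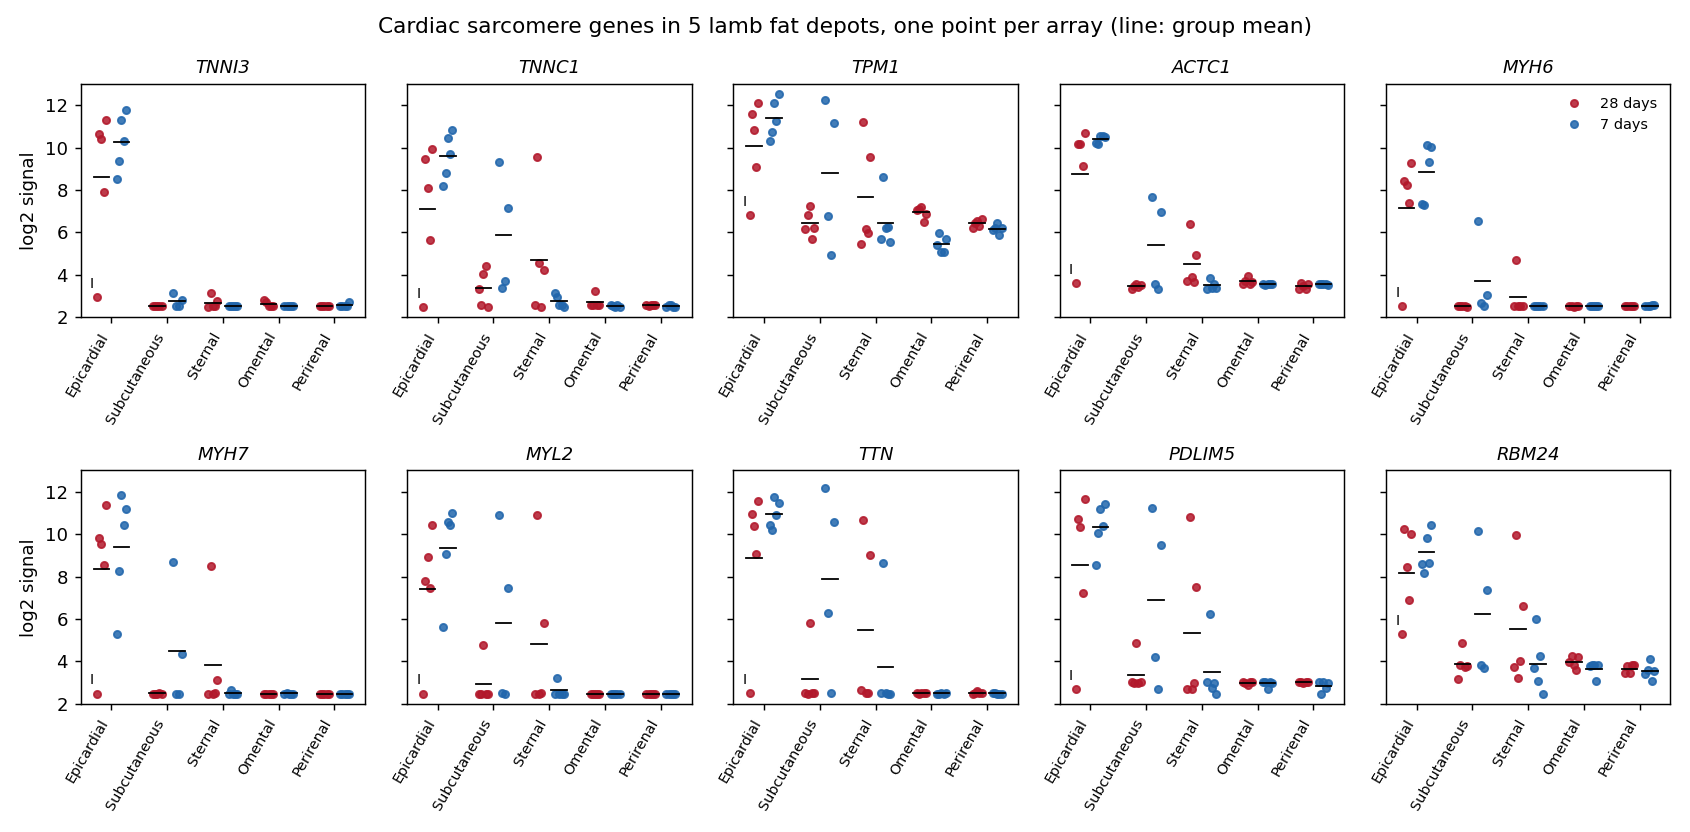
Log2 signal (vertical axis) of the 10 genes in each depot, one point per array, with 28 days in red to the left of 7 days in blue and a black line at each group mean. The epicardial group means are the highest of each age in every panel, epicardial replicate I at 28 days (marked I) is the lowest epicardial point, and TNNI3 stays at 3.15 or less in all arrays of the other depots.

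Epicardial replicate I at 28 days stood apart from the other 9 epicardial arrays. It was the lowest of its group for 10 of 10 genes, and for 9 of them it was less than 1 log2 unit above the mean of the omental and perirenal arrays of its age, a margin that 0.37% of all probe sets passed on this array. The exception was RBM24, at 5.31. Each of the other 9 epicardial arrays passed that margin for 10 of 10 genes, against 1.26%, 0.681%, 0.711% and 1.09% of all probe sets on replicates J, L, N and O at 28 days and 1.08%, 1.29%, 1.32%, 1.23% and 1.82% on A, C, D, E and G at 7 days. For 2 other genes replicate I lay with its group. TCF21, a transcription factor of epicardial and adipose progenitors, was at 8.28 there and between 7.64 and 8.07 in the other 4 epicardial arrays at 28 days, and at most 6.64 in any other depot of that age. HOXC6, a positional gene of the trunk, was at 2.49 in replicate I and at most 2.55 in its group, against at least 5.35 in every other depot at 28 days. The array was kept under its label, and results that rest on it are given with and without it.

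The thin filament regulators opened the comparison. TNNI3 (205742_at), the inhibitory subunit of cardiac troponin, read 2.94, 10.66, 10.39, 7.88 and 11.29 in epicardial replicates I, J, L, N and O at 28 days, and 8.51, 9.36, 11.29, 10.32 and 11.75 in replicates A, C, D, E and G at 7 days. In the 39 arrays of the other depots it ran from 2.49 to 3.15, so that only replicate I of the epicardial arrays overlapped them. The log2 difference from the other depots was 6.05 ± 0.73 (SE, adjusted p = 1.76e-05) at 28 days and 7.67 ± 0.30 (adjusted p = 2.47e-13) at 7 days in limma.

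TNNC1 (209904_at), the calcium-binding subunit that heart and slow skeletal muscle share, read 2.49, 9.44, 8.09, 5.62 and 9.92 in epicardial fat at 28 days and 8.21, 8.79, 10.43, 9.69 and 10.85 at 7 days. Unlike TNNI3 it was also high outside the epicardial depot, at 9.57 in sternal replicate J at 28 days and at 9.31 and 7.17 in subcutaneous replicates A and G at 7 days, against 3.22 or less in every omental and perirenal array. The groups overlapped at both ages, and the differences were 3.78 ± 0.92 at 28 days and 6.17 ± 0.60 at 7 days.

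TPM1 (206116_s_at), the tropomyosin that blocks the myosin sites of actin and that also has forms in non-muscle cells, was the only one of the 10 above 4 in all 49 arrays. It read 6.83, 11.57, 10.84, 9.10 and 12.11 in epicardial fat at 28 days and 10.31 to 12.51 at 7 days, against 6.49 to 7.20 in omental and 6.23 to 6.64 in perirenal fat at 28 days and 5.07 to 5.98 and 5.89 to 6.43 in these depots at 7 days. Replicate I lay inside the omental range. Subcutaneous replicates A and G at 7 days, at 12.26 and 11.14, and sternal replicate J at 28 days, at 11.22, lay inside the range of the epicardial arrays of their age other than replicate I. So did sternal replicate O at 28 days, which lay 2.87 above the mean of the omental and perirenal arrays of its age, against 2.41 for epicardial replicate N. ACTC1 (205132_at), cardiac alpha actin, read 3.60, 10.18, 10.19, 9.14 and 10.66 at 28 days, and at 7 days its 5 epicardial arrays had the narrowest spread of the set, from 10.17 to 10.55. In other depots it was highest in subcutaneous replicate A at 7 days, at 7.67, and in sternal replicate J at 28 days, at 6.37, both below every epicardial array but replicate I.

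The myosin genes followed. MYH6 (214468_at), the alpha heavy chain, read 2.52, 8.44, 8.23, 7.39 and 9.27 in epicardial fat at 28 days, and 7.33, 7.31, 10.11, 9.34 and 10.04 at 7 days. Outside it, only 2 arrays exceeded 4, subcutaneous replicate A at 7 days with 6.52 and sternal replicate J at 28 days with 4.72. All 5 epicardial arrays at 7 days lay above every other array of that age, as they did for TNNI3 and ACTC1, which makes 3 of the 10 genes against 0.37% of all probe sets. At 28 days 0 of 10 did so, against 0.117%, and without replicate I 4 of 10 (MYH7 in addition), against 0.302%.

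MYH7 (216265_x_at), the beta heavy chain of the ventricle and of slow muscle, read 2.49, 9.83, 9.56, 8.54 and 11.39 in epicardial fat at 28 days and 5.30, 8.28, 11.87, 10.42 and 11.21 at 7 days, and sat at 2.49 in every omental and perirenal array. MYL2 (209742_s_at), the ventricular and slow-muscle regulatory light chain, read 2.49, 7.81, 8.93, 7.46 and 10.44 at 28 days and 5.61, 9.05, 10.59 and 10.43 in replicates A, C, D and E at 7 days, with G above these (mean of the 5 arrays 9.33 ± 2.21, SD). For both genes replicate A was the lowest epicardial array at 7 days by over 2 log2 units, and for both a subcutaneous array (replicate A at 7 days, 8.70 for MYH7 and 10.89 for MYL2) reached epicardial levels. Sternal replicate J at 28 days read 10.93 for MYL2, above every epicardial array of that age. For MYH7 it read 8.52, just below every epicardial array of that age but replicate I. The difference of MYL2 had the highest adjusted p of the set at 28 days, with 4.24 ± 1.03 (adjusted p = 0.0217).

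TTN (208195_at), the elastic protein that spans from the Z-disc to the middle of the sarcomere in all striated muscle, read 2.51, 10.96, 10.41, 9.08 and 11.56 in epicardial fat at 28 days and 10.22 to 11.75 at 7 days. Its highest value of all was in subcutaneous replicate A at 7 days, at 12.18, followed outside epicardial fat by sternal replicate J at 28 days (10.66), subcutaneous replicate G at 7 days (10.56), sternal replicate O at 28 days (9.02) and sternal replicate D at 7 days (8.62). Omental and perirenal arrays lay between 2.49 and 2.62. PDLIM5 (213684_s_at), a Z-disc adaptor of heart and skeletal muscle, read 2.70, 10.71, 10.33, 7.24 and 11.67 in epicardial fat at 28 days and 8.58 to 11.42 at 7 days. Sternal replicates J and O at 28 days, at 10.82 and 7.50, and subcutaneous replicates A and G at 7 days, at 11.26 and 9.5, lay within the range of the epicardial arrays of their age other than replicate I. RBM24 (235004_at), an RNA-binding protein that directs muscle splicing and is known in mouse to be needed for the assembly of the sarcomere, read 5.31, 10.25, 8.46, 6.92 and 10.01 at 28 days and 8.19 to 10.45 at 7 days, against at most 4.25 in omental and perirenal fat. Sternal replicate J at 28 days, at 9.98, and subcutaneous replicate A at 7 days, at 10.13, lay inside the range of the epicardial arrays of their age other than replicate I.

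**Figure D2:**
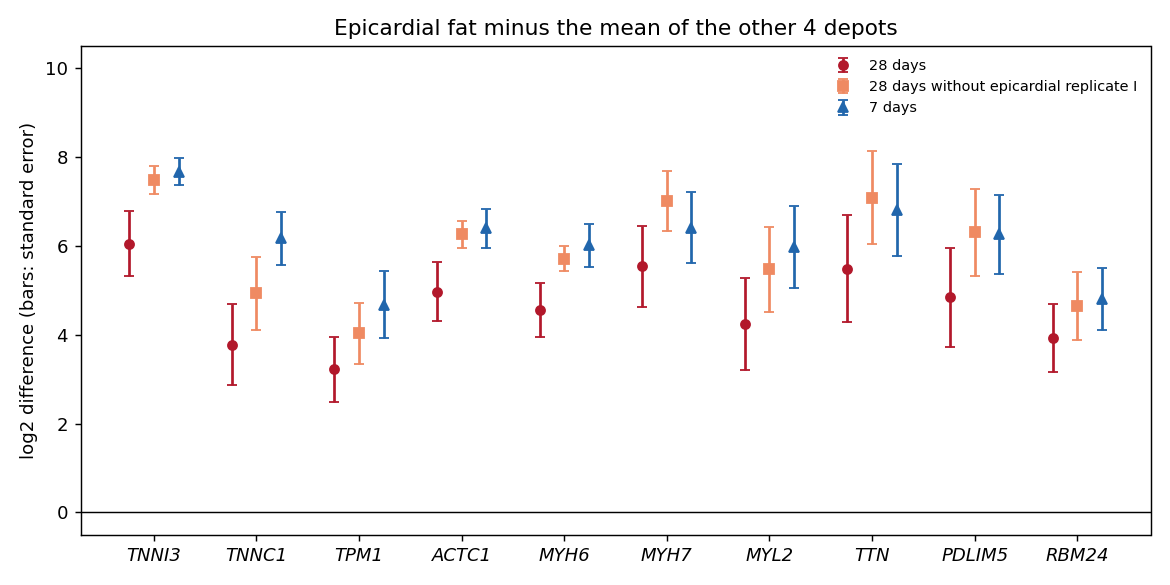
Log2 difference of epicardial fat from the mean of the other 4 depots for each gene, with standard errors from limma, at 28 days (red circles), at 28 days without epicardial replicate I (orange squares) and at 7 days (blue triangles). Differences at 28 days ran from 3.22 to 6.05 with all arrays and from 4.04 to 7.48 without replicate I.

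Without replicate I the differences at 28 days were larger for all 10 genes, from 4.04 ± 0.69 for TPM1 to 7.48 ± 0.32 for TNNI3, and 10 of 10 were called (3.4% of all probe sets in either direction). For TNNI3 the standard error fell to 0.32 without it, against 0.73 with it. One spread per probe set was fitted over the 5 depots of an age, and depots that sit at the lowest signal have almost none. For TNNI3 the standard errors therefore understate the spread within epicardial fat. This does not hold for every gene. For TTN at 28 days the SD was 1.06 in epicardial fat without replicate I and 4.03 in sternal fat.

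Set against single depots, most of the 10 genes were called in omental and perirenal comparisons and fewer in some with sternal and subcutaneous fat. Against omental fat, 9 were called higher at 28 days (1.1% of all probe sets higher; TPM1 was not, adjusted p = 0.0638 in limma) and 10 at 7 days (3.36%), and against perirenal fat 10 at 28 days (1.06%) and 10 at 7 days (1.24%). Against sternal fat, 4 were called at 28 days (TNNI3, MYH6, MYH7 and ACTC1, where 11.6% of all probe sets were called higher) and 10 at 7 days (3.24%). Against subcutaneous fat, 8 were called at 28 days (1.55%), with TNNC1 and MYL2 not called, and 5 at 7 days (TNNI3, TNNC1, MYH6, MYH7 and ACTC1; 1.75%). The differences of the 5 not called at 7 days ran from 2.61 ± 1.00 for TPM1 to 3.50 ± 1.23 for MYL2. The difference of TNNI3 was 5.94 to 6.12 at 28 days and 7.51 to 7.74 at 7 days. Every other depot lay near the lowest signal, so these values may understate it and do not order the depots. Without replicate I, 10 of 10 were called at 28 days against omental (3% of all probe sets in either direction), perirenal (2.59%), sternal (10.9%) and subcutaneous fat (3.32%). When only epicardial fat and the single other depot were fitted, 0 of the 10 were called at 28 days in limma against omental (1.39% of all probe sets in either direction), perirenal (0.876%), sternal (4.17%) or subcutaneous fat (0.866%). At an unadjusted p under 0.05 the counts were 10, 10, 4 and 10. Without replicate I such fits called 10 against omental (1.42%), 10 against perirenal (1.14%), 3 against sternal (3.47%) and 9 against subcutaneous fat (0.973%).

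A few subcutaneous and sternal arrays carried most of these genes. By the margin of 1 log2 unit over the omental and perirenal mean of the age, subcutaneous replicate A at 7 days passed for 9 of 10 genes (1.57% of all probe sets), replicate G for 8 (0.983%) and replicate E for 2 (0.808%). Among sternal arrays at 28 days replicate J passed for 9 (0.944%) and replicate O for 7 (0.75%), and at 7 days replicate D for 4 (0.409%). Subcutaneous replicate J at 28 days passed for 5 (0.827%). TNNI3 was the gene that none of these arrays passed, and its highest value among them was 3.15.

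TNNC2 and MYH1, genes of fast skeletal muscle, were high in some of these arrays and near the lowest signal in epicardial fat. TNNC2, the fast skeletal troponin C, read 12.15 and 10.82 in subcutaneous replicates A and G at 7 days and 11.64 and 8.79 in sternal replicates J and O at 28 days, against at most 3.17 in the 10 epicardial arrays. MYH1, a fast heavy chain, was at 8.83 in subcutaneous replicate A, 7.31 in G and 8.72 in sternal replicate J, and at most 2.75 in epicardial fat. Of 18 measured genes of a fast skeletal muscle list, 12 exceeded 4 in subcutaneous replicate A and in sternal replicate J, 10 in subcutaneous replicate G, 8 in sternal replicate O, 5 in subcutaneous replicate J and sternal replicate D and 4 in subcutaneous replicate E, while epicardial arrays had 1 to 3 at 28 days and 2 to 4 at 7 days. The summed log2 signal of that list was 50.3 to 58.1 in epicardial fat at 28 days and 55.0 to 60.4 at 7 days, against 49.5 to 50.8 and 48.2 to 50.4 in omental and perirenal fat at these ages. It was 120.3 in subcutaneous replicate A, 109.7 in sternal J, 98.3 in subcutaneous G, 80.5 in sternal O, 67.2 in sternal D and 62.9 in subcutaneous J. At 57.3 in subcutaneous E it lay inside the epicardial range. ENO3, muscle enolase, was above 4 in every epicardial array, from 4.28 to 8.74 at 28 days and from 6.85 to 9.39 at 7 days. The 4.28 was that of replicate I, and subcutaneous replicate H at 28 days, with TNNC2 at 2.78, also read 4.28. A value above 4 therefore does not set replicate I apart for this gene. TNNC2 was at 7.55 in sternal replicate D and 5.03 in subcutaneous replicate E at 7 days and at 6.59 in subcutaneous replicate J at 28 days. The part of skeletal muscle RNA in the values of the 10 genes in these arrays was not tested.

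**Figure D3:**
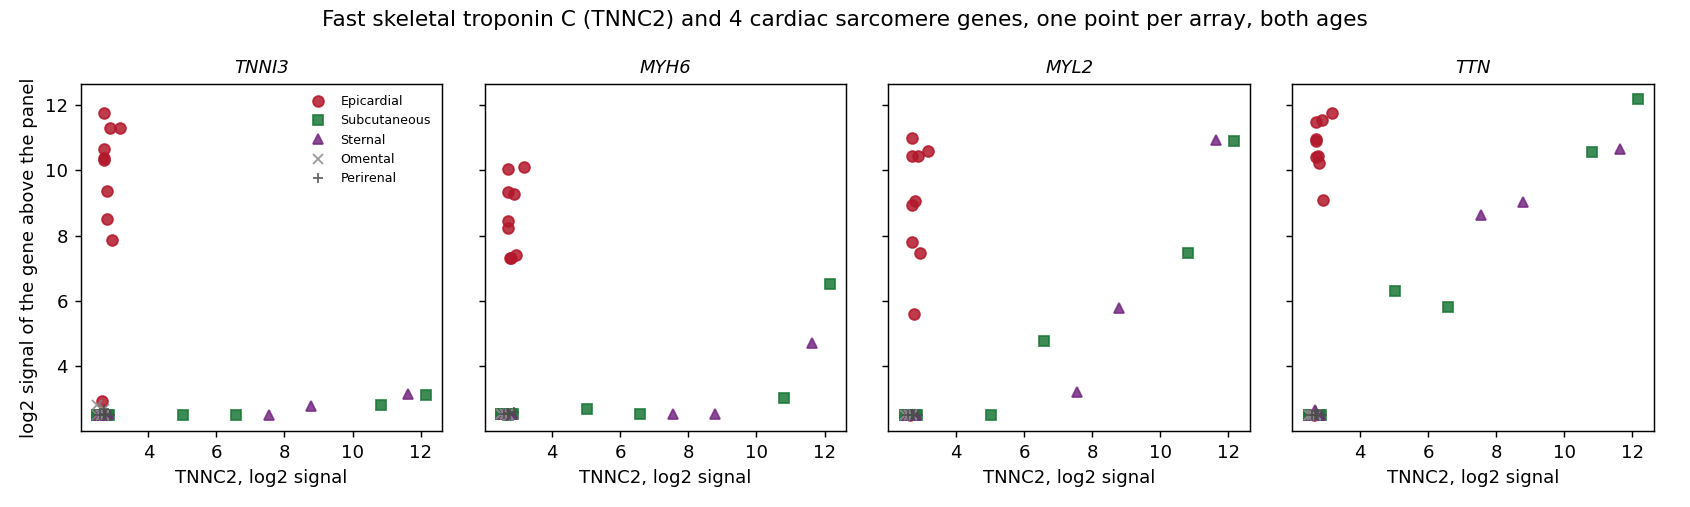
Log2 signal of TNNI3, MYH6, MYL2 and TTN (vertical axes) against that of fast skeletal troponin C, TNNC2 (horizontal axis), one point per array at both ages, with depots by symbol. Epicardial arrays (red circles) stand in a column at a TNNC2 of at most 3.17, while the 4 subcutaneous and sternal arrays with TNNC2 from 8.79 to 12.15 read 9.02 to 12.18 for TTN, 5.79 to 10.93 for MYL2 and at most 3.15 for TNNI3.

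CKM, muscle creatine kinase, exceeded 4 in 9 subcutaneous and sternal arrays (5 at 28 days and 4 at 7 days). Leaving those out, which was chosen with values known, 9 of 10 genes were called against sternal fat at 28 days (7.55% of all probe sets in either direction) and 10 of 10 against subcutaneous fat at 7 days (4.19%). The arrays left were 2 of sternal fat at 28 days and 4 at 7 days, and 3 of subcutaneous fat at 28 days and 1, replicate F, at 7 days. That single array is assumed to vary like the other groups. CKM was the gene most like TTN over all arrays (r = 0.968), so most arrays left out were high in these genes, and the counts do not test the difference from the full depots. Subcutaneous replicate M at 28 days was left out at a CKM of 4.11, with TTN at 2.51. Against the other 4 depots together 10 of 10 were then called at 28 days (3.24%) and 10 of 10 at 7 days (4.85%). Single arrays moved these counts as well. Against sternal fat at 28 days 10 were called without sternal replicate J (11.8%) and 10 without epicardial replicate I (10.9%), and against subcutaneous fat at 7 days 9 were called without subcutaneous replicate A (2.94%). Against the mean of omental and perirenal fat, subcutaneous fat at 7 days had 2 genes called higher, TTN by 5.39 ± 1.21 (adjusted p = 0.0287 in limma) and TNNC1 by 3.36 ± 0.70 (adjusted p = 0.0196), where 0.487% of all probe sets were called higher. That count was 0 without subcutaneous replicate A (5 unadjusted; 0.925% of all probe sets in either direction) or G (8 unadjusted; 0.574%), 7 without F (1.7%) and 6 without E (1.46%). Sternal fat had 0 called at either age in limma (2 at an unadjusted p under 0.05 at 28 days and 0 at 7 days; 1.29% and 0.0584% of all probe sets called higher), and subcutaneous fat at 28 days 0 (0 unadjusted; 0.925%).

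Within epicardial fat the 10 genes moved together from array to array. At 28 days replicate I was the lowest for 10 genes, N the second lowest for 10 and O the highest for 9, with J the highest for RBM24. At 7 days replicates A and C held the lowest and second lowest places for all 10 genes, and G was the highest for 6, D for 3 and E for 1. MYL4, the atrial light chain, was ordered otherwise, at 7.68 in replicate J and 5.56 in O at 28 days and at 7.56 and 7.54 in A and C at 7 days, against 5.67 to 6.63 in D, E and G. It read 5.26 in epicardial replicate I and in several subcutaneous arrays, so its lower epicardial values lie close to that level and their order is uncertain.

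**Figure D4:**
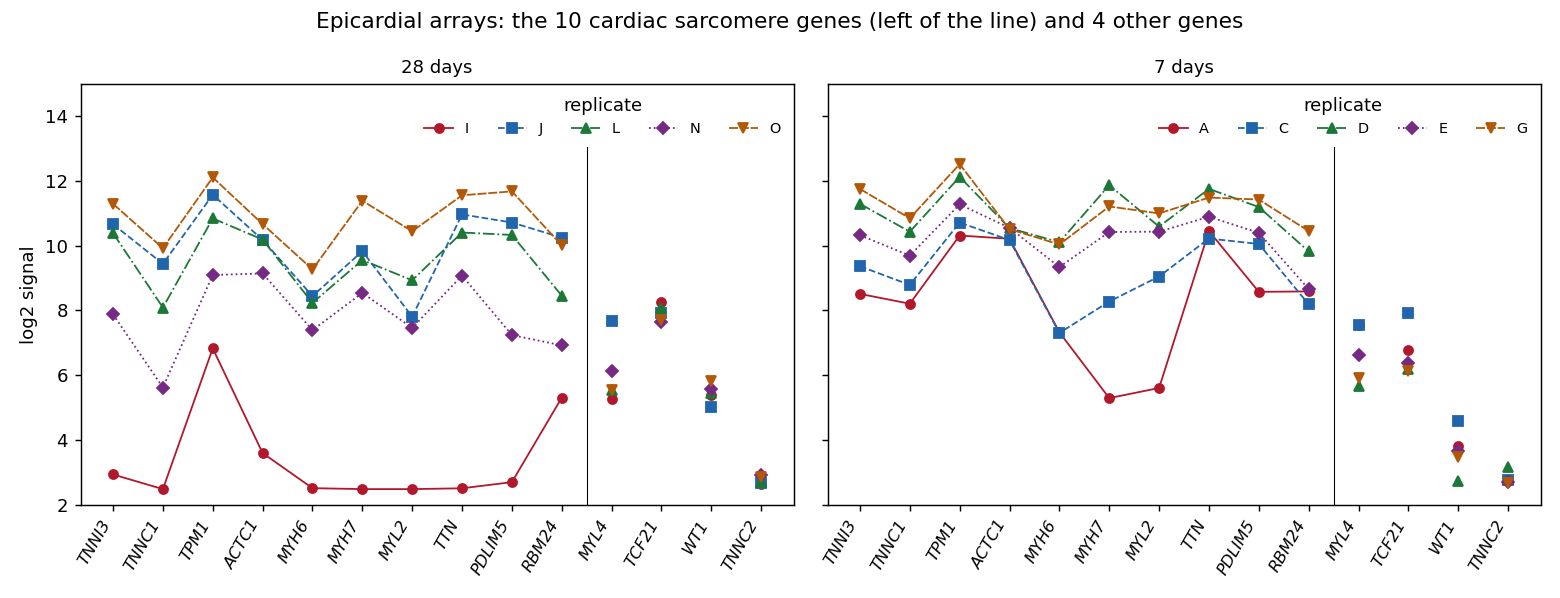
Log2 signal of the 10 genes (left of the vertical line, points of one array joined by a line) and of MYL4, TCF21, WT1 and TNNC2 in the 5 epicardial arrays at 28 days (left panel) and at 7 days (right panel). Replicate I is low for 9 of the 10 genes at 28 days and lies with the group for TCF21, WT1 and TNNC2, and levels of different genes are not comparable.

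The labels do not say whether the replicate number marks a lamb, and the main fits did not use it as a pairing. Set beside the omental array that shares its number, the epicardial array was higher by at least 1 log2 unit for 3 of 4 numbers at 28 days (I, J, N and O) for 9 genes and for 4 of 4 for RBM24, and for 5 of 5 at 7 days for all 10. For I at 28 days the difference was 0.14 for TNNI3, 0.00 for MYH6, MYH7, MYL2 and TTN, and 1.33 for RBM24.

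The age comparison asked whether the signal of these genes changed between 28 and 7 days. In epicardial fat the mean was lower at 28 days for 10 of 10 genes, with log2 differences from -2.48 (TNNC1) to -0.95 (RBM24), and 0 were called in limma (4 at an unadjusted p under 0.05), where 1.63% of all probe sets were called lower. TNNI3 was called without epicardial replicate O at 28 days (difference -2.28, adjusted p = 0.0458; 5.98% of all probe sets in either direction). TNNC1 averaged 7.11 ± 3.08 at 28 days and 9.59 ± 1.10 at 7 days (SD, n = 5 each), and an exact two-sided permutation test gave p = 0.135, the lowest of the 10 genes, where the smallest p that this unpaired test allows is 0.00794. Twins were split between the ages, but the labels do not name the mothers. Neither the permutation test nor limma used that pairing. For TTN the means were 8.90 ± 3.69 at 28 days and 10.96 ± 0.65 at 7 days (SD, n = 5 each; exact permutation p = 0.254). Without replicate I 0 were called (4.33% of all probe sets), the differences ran from -1.32 for TNNC1 to 0.41 for MYH7, which changed direction, and the exact permutation p from 0.246 to 0.841. The piece of tissue extracted was smaller at 7 days than at 28 days per the methods, so that age and input cannot be told apart.

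In the other depots, 1 gene was called in limma. TTN was lower in subcutaneous fat at 28 days than at 7 days, with a log2 difference of -4.72 ± 1.52 (adjusted p = 0.0417; 1.57% of all probe sets called lower), with values of 2.51, 2.49, 5.81, 2.51 and 2.51 in replicates H, I, J, M and N at 28 days against 12.18, 6.29, 2.51 and 10.56 in replicates A, E, F and G at 7 days. Replicate F at 7 days lay with the low arrays. The call was lost, leaving 0 in limma, without subcutaneous replicate A (7.06% of all probe sets in either direction) or G (7.09%) at 7 days, which are high in TNNC2, and without H (7.48%), I (8.39%), M (8.3%) or N (8.43%) at 28 days. At an unadjusted p under 0.05 the count was 1 without A or G and 6 without each of the other 4 arrays. Without F, 5 genes were called (7.53%), and without E, 2 (7.84%). In omental, perirenal and sternal fat 0 of 10 were called (0 unadjusted in each; 14.6%, 9.32% and 6.37% of all probe sets called in either direction). The age change in epicardial fat minus that of the other 4 depots was called for 0 of 10 genes (1 unadjusted; 0.146% of all probe sets), with differences from -2.39 ± 1.12 for TNNC1 to -0.87 ± 1.24 for MYH7.

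Other genes of the muscle cell were counted from lists, without the 10 genes themselves. Listed genes that were not measured have no probe set in the table, which may come from how it was selected. Of a cardiac-restricted list of 22 genes, 9 others were measured, and 2 were called higher in the epicardial depot at 28 days (PLN and RYR2) and 3 at 7 days (MYL4, PLN and SLC8A1). PLN, phospholamban, the brake on the calcium pump, differed by 0.75 ± 0.07 at 28 days and 0.71 ± 0.14 at 7 days, and was at most 3.47 in epicardial fat at 28 days. Of the 9 genes 8 were below 4 in every epicardial array at 28 days and 7 at 7 days, where differences cannot be resolved well. Of 17 other thick and thin filament genes 1 was called at 28 days (LMOD2, a leiomodin that lengthens thin filaments, by 1.84 ± 0.40) and 3 at 7 days (LMOD2 by 2.19 ± 0.33, MYL4 and NEBL). The median difference of this list was -0.04 at 28 days and 0.00 at 7 days.

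Z-disc and membrane anchor genes gave 4 of 22 higher at 28 days (ACTN2, CRYAB, MYOZ2 and NRAP) and 6 of 22 at 7 days. ACTN2, the sarcomeric alpha actinin, differed by 2.71 ± 0.50 at 28 days and 2.83 ± 0.48 at 7 days, and CRYAB, a small heat shock protein that binds desmin and titin, by 2.36 ± 0.40 and 2.97 ± 0.44 at these ages. ACTN2 read 2.49 in epicardial replicate I and 4.40 to 7.00 in the other 4 arrays at 28 days. Of 19 genes of calcium handling and excitation 5 were called at 28 days and 6 at 7 days, led by KCNH2, a potassium channel of repolarisation (0.97 ± 0.14 and 0.97 ± 0.13), at 28 days and by HRC, a calcium-binding protein of the sarcoplasmic reticulum (2.19 ± 0.52), at 7 days. CKM was higher by 3.48 ± 1.27 at 28 days, which was not called (adjusted p = 0.162 in limma), and by 5.75 ± 1.10 at 7 days (adjusted p = 0.00298), and CKMT2, its mitochondrial relative, by 2.06 ± 0.61 (adjusted p = 0.0675) and 4.05 ± 0.60 (adjusted p = 0.000181). Of 17 transcription and RNA processing genes 4 were called at each age, with PROX1, a homeobox factor of heart and other tissues, by 1.04 ± 0.28 at 28 days and 1.73 ± 0.20 at 7 days. The fast skeletal list had 0 of 18 called at 28 days and 1 at 7 days (ENO3, muscle enolase). The slow skeletal list, of which 7 others were measured, had 1 at each age (MYOZ2, a Z-disc protein of slow and cardiac muscle).

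As a check of the labelled tissue, most adipocyte genes lay near the lowest signal on this human array, and FABP4, the fatty acid carrier of adipocytes, was at most 3.18 in any depot. FABP4, PPARG, LPL, CIDEC, LIPE and PNPLA2 were below 4 in every epicardial array, and of 16 measured genes of the list 3 exceeded 4 in each epicardial array at 28 days and 3 to 5 at 7 days. CD36, a fatty acid transporter, at 8.08 to 9.58, DGAT2, an enzyme of triglyceride synthesis, at 7.43 to 9.88, and SCD, at 4.59 to 6.15, were above 4 in all 10. For SCD the same 4.59 was read in replicates C and D at 7 days and in I, N and O at 28 days. That may be the lowest signal of its probe set, so a value above 4 need not mean that SCD was detected there. At 7 days SCD, the stearoyl-CoA desaturase, was lower in epicardial fat, with a log2 difference of -2.38 ± 0.48 from the mean of the others, and DGAT2 and CD36 were also called lower. The size of the SCD difference may be understated if 4.59 is its lowest signal. At 28 days 0 of 16 were called in limma against the mean of the others (3 unadjusted), but 3 were lower than in omental fat (SCD, CD36 and PPARG) and 2 lower than in perirenal fat. Of 8 measured endothelial genes none exceeded 4 in an epicardial array. WT1, a mesothelial and epicardial gene, was called higher at 28 days, by 1.60 ± 0.27, and differed by 0.12 ± 0.38 at 7 days, which was not called.

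Genes with the profile most like each of the 10 over the 49 arrays were then listed. For TNNI3 these were GPR22, a G protein-coupled receptor of heart and brain (Pearson r = 0.981, Spearman rho = 0.496), CDH2, the cadherin of the intercalated disc (r = 0.967), PPM1E (r = 0.938) and KCNJ4 (r = 0.927). GPR22 also came first for MYH6 (r = 0.953). GPR22 averaged 6.19 ± 2.14 in epicardial fat at 28 days and 8.07 ± 1.90 at 7 days (SD, n = 5 each), and its highest array outside epicardial fat read 3.06. For TTN and PDLIM5 the nearest was CKM (r = 0.968 and 0.955), and for TPM1 it was ENO3 (r = 0.945). ACTN2 came first for MYH7 (r = 0.944), ACTC1 (r = 0.925) and RBM24 (r = 0.942), CKMT2 for TNNC1 (r = 0.960) and USP13 for MYL2 (r = 0.956). Among the 10 genes the closest pair was TTN and PDLIM5 (r = 0.983) and the least alike TNNI3 and TTN (r = 0.777). These values describe 49 arrays in which most points lie at the lowest signal and depots and ages are shared, so they carry no p-value.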

How the data were processed

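The deposited log2 values came from GCRMA, run by the authors on human U133 Plus 2 arrays. It uses probe sequence for background correction, then normalizes between arrays and gives 1 value per probe set. Software versions were not given in the sources used here. No counts lie behind the values, so the number of arrays limits the precision. Of 10273 probe sets 9780 carry 1 symbol in the platform annotation, 6 several and 487 none, and no gene was named from several. The paper mentions a variance test before its component analysis. Whether the deposited values went through it was not given. Ages came from the age field, although the description shared by all samples gives a different range. The highest correlation between arrays was 0.990, so none was taken as a repeat.

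Tests used limma 3.58.1 in R 4.3.3, with 1 fit per age over 5 depots and 1 over all 10 groups for age, moderation by eBayes, and Benjamini-Hochberg adjustment over all probe sets at 0.05. The code was tested on simulated data. Alternatives were the replicate number as a block, a filter at a mean of 4 (passed by 7 of the 10 genes at 28 days and 10 at 7 days, where the main tests had none), quantile normalization, trended and robust moderation, array weights, only the depots compared, and each array left out. Fits without the subcutaneous and sternal arrays with CKM above 4 (alone, or with epicardial replicate I), pairwise fits without replicate I, and the exact permutation tests were chosen after seeing the data. All 10 genes were named, with the 4 non-members most correlated with each, the 4 genes of each list with the largest called difference, and CKM. TCF21, HOXC6, TNNC2, MYH1, WT1, FABP4, PPARG, LPL, CIDEC, LIPE and PNPLA2 were named after their values were seen. The genes and lists were chosen with earlier results of these data known.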

Additional observations from a re-analysis of the deposited data

Results flagged for a closer look

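Of 54 groups of 4 or 5 arrays with a value above 4, 13 held an array far from the rest, where the gap to the nearest array took most of the range of the group. The rule is set to flag about 1 in 20 groups of normally distributed values. That rate does not hold here, since in several groups all arrays but 1 lie at the lowest signal, where a flag is nearly assured. The 10 genes are not independent either, so 1 array can be marked several times. Epicardial replicate I at 28 days was marked low for MYH6 (2.52), ACTC1 (3.60) and TTN (2.51). Sternal replicate J at 28 days was marked high for TNNC1 (9.57), MYH6 (4.72) and MYH7 (8.52), and sternal replicate D at 7 days for TTN (8.62), TPM1 (8.63) and PDLIM5 (6.26). Subcutaneous replicate J at 28 days was marked high for MYL2 (4.77), TTN (5.81) and PDLIM5 (4.85), and subcutaneous replicate A at 7 days for MYH6 (6.52). TNNC2 was between 6.59 and 12.15 in the marked sternal and subcutaneous arrays. Sternal replicate O at 28 days and subcutaneous replicate G at 7 days, at 8.79 and 10.82, lay in that range and were not marked. The part of skeletal muscle RNA in these values was not tested.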

How the results depend on the processing

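Of 653 counts of called genes under an alternative, 587 stayed within 1.5 times the main count and 66 did not, and of 1353 differences of single genes 1326 kept their direction and side of the threshold, 19 lost and 2 gained a call and 6 changed direction. The cause of these changes was not tested. Percentages are shares of all probe sets tested. With the replicate block, at 28 days 5 of 10 genes were called against the other 4 depots (2.13%) and 5 in the test over all depots (16.1%), and 3 against perirenal (1.0%) and 3 against subcutaneous fat (1.67%), and at 7 days 3 against subcutaneous fat (1.55%). Same-numbered arrays deviated from their group means with a median correlation of 0.06 over 39 pairs at 28 days and 0.05 over 33 pairs at 7 days. Differently numbered arrays gave -0.009 over 211 pairs and -0.011 over 197 pairs at these ages. A correlation over 0.1 was found in 12 of 39 same-numbered and 12 of 211 other pairs at 28 days. At 7 days it was found in 6 of 33 and 15 of 197. The labels do not say whether the number marks a lamb, and the main fits treat same-numbered arrays as independent. With only the depots compared, 0 genes were called at 28 days against omental (1.39%), perirenal (0.876%), sternal (4.17%) or subcutaneous fat (0.866%), 1 at 7 days against subcutaneous fat (0.273%), 0 in subcutaneous against omental and perirenal fat at 7 days (0.672%), 1 with age in omental (8.97%) and 0 in subcutaneous fat (1.07%). A mean of at least 4 gave 6 in subcutaneous against omental and perirenal fat at 7 days (7.76%) and 2 with age in subcutaneous fat (31.9%). Quantile normalization (4.8%), robust moderation (8.76%) and array weights (8.2%) each gave 0 with age in subcutaneous fat. Without arrays with CKM above 4, which leaves 1 subcutaneous array at 7 days, assumed to vary like the other groups, counts were 9 against sternal fat at 28 days (7.55%), 10 against subcutaneous fat at 7 days (4.19%), 0 in subcutaneous against omental and perirenal fat at 7 days (3.01%), 1 with age in epicardial fat (TNNC1, by -2.48, adjusted p = 0.0417; 5.8%) and 0 in subcutaneous fat (3.86%), and without replicate I as well 10 against sternal fat (7.37%), 1 with age in omental (15.2%) and 0 in subcutaneous fat (3.88%). Leaving out each array (shares are of the fits whose count moved by over 1.5 times) gave, at 28 days, 5 to 10 against the other 4 depots (2.2% to 2.23%), 6 to 10 over all depots (18.5% to 19.0%), 4 to 10 against omental (1.85% to 2.81%), 5 to 10 against perirenal (1.59% to 2.13%), 4 to 10 against sternal (10.9% to 11.8%) and 5 to 10 against subcutaneous fat (2.29% to 2.9%), and 0 to 1 in sternal against omental and perirenal fat (19.1%); at 7 days 3 to 9 against subcutaneous fat (1.65% to 2.94%) and 0 to 7 in subcutaneous against omental and perirenal fat (0.574% to 1.7%); with age 0 to 1 in epicardial (5.98%) and 0 to 5 in subcutaneous fat (7.06% to 8.43%). Leaving out each array, the age difference of MYH7 in epicardial fat ran from -2.08 to 0.41 (above 0 without replicate I, and 0.41 without the arrays high in CKM as well), and the difference in age change from -1.90 to 0.59 for MYH7 (0.41 without those arrays and I), -2.21 to 0.037 for PDLIM5 and -1.99 to 0.27 for TTN, each above 0 without replicate I. Most genes outside epicardial fat lie near the lowest signal, where differences cannot be resolved.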
